A study of Drosophila melanogaster with 3 samples.

Results

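Binding of the zinc-finger protein Spalt-related (Salr) was examined at 10 nuclear receptor genes of Drosophila melanogaster, namely Hnf4, ERR, Hr38, Hr39, Hr78, Hr83, Hr96, Hr51, tll and dsf. They were taken by name, as the receptor genes left after the ecdysone receptor, the core of its cascade and the knirps and seven-up groups. They make up 10 of the 13945 protein-coding genes on the major chromosome arms. A peak summit was assigned to a gene when it lay in the annotated gene span or within 5 kb of it. The measurements come from ChIP-seq on whole prepupae of mixed sex from a stable transgenic line (strain salr-GFP) in which GFP is fused to the C-terminus of salr, with an anti-GFP antibody used for the precipitation. There are 3 biological replicates of this 1 group, all from the same line, with no age recorded beyond the stage. The labels name neither the promoter of the transgene nor a second condition, so there is no contrast to test, and each value is set beside the same value over all genes or all peaks. In whole animals, strong binding in a few cells and weak binding in many cells cannot be told apart.

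Nuclear receptors are transcription factors with a zinc-finger DNA-binding domain and, in most cases, a pocket that can hold a lipid-like ligand. In the fly, the steroid ecdysone drives larvae through the prepupal stage to metamorphosis by way of its own receptor and a cascade of receptor genes that it switches on. The genes described here are mostly orphan receptors outside the core of that cascade. Some of them set the use of sugar, fat and sterols, and others pattern the embryo or the nervous system. Spalt proteins are known for roles in patterning the wing, the eye, muscle and sense organs.

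Salr-GFP summits were found at Hnf4, ERR, Hr38, Hr39 and Hr83, and none were found at Hr78, Hr96, Hr51, tll and dsf, in the authors' list of reproducible peaks. That list was thresholded by the irreproducible discovery rate (IDR), a measure of how well peak ranks agree between replicates, and holds 6485 peaks with a deposited signal value that ranks them. These are the 6485 strongest of the 30000 peaks called on the pooled replicates, with signal values from 116 upward. A peak's place in the list thus follows its pooled signal, and does not by itself show that the replicates agree at that peak. The 5 genes with a summit (50% of the 10) compare with 38.8% of all protein-coding genes. Hr83 counts among the 5 through its flank alone, with no summit in its span. Long genes collect more summits, and when genes were sorted into 5 classes of equal size by span, the bound share went from 26.3% in the shortest to 61.2% in the longest. Hr38, Hr39, Hr51, Hnf4 and dsf belong to the longest class, Hr78, Hr96 and ERR to the next, tll to the middle class and Hr83 to the second shortest. The shares of these classes add up to 4.92 bound genes of 10, and the mean counts of the classes to 13.6 summits. The count found was 13 summits, or 0.614 per 10 kb of the searched windows, against 0.484 per 10 kb over the arms. Both counts of the 10 genes thus lay close to the sums over these classes. Length is matched only coarsely, since the longest class runs from 6458 to 1965857 bp. Its 5 genes described here span 8060 to 31127 bp.

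**Figure D1:**
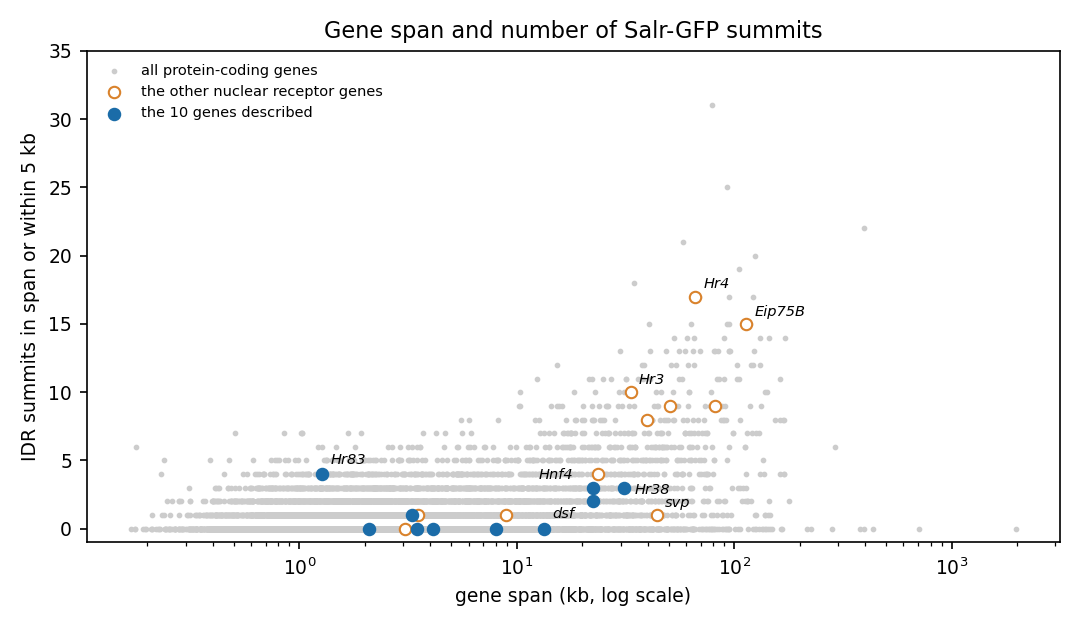
IDR summits per gene, its 5 kb flanks included (vertical axis), against gene span in kb (horizontal axis, log scale) for all protein-coding genes (grey), the 10 genes described (blue) and the remaining nuclear receptor genes (open orange circles). The 10 genes hold 0 to 4 summits each, whereas Hr4 and Eip75B hold 17 and 15.

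Within the set, the strongest summits were those at Hnf4 and beside Hr83. The 13 summits ranked between 226 and 6374 of 6485, with a median of 3870, against 3243 for the list as a whole. Among the 1000 strongest peaks were 2 of them, and 5 were among the better-ranked 3242. The last summit inside the list was that at rank 6374 near Hr38, with a signal value of 118. The first entry of these genes beyond the list, in the list called on the pooled replicates, ranked 8083 and lay in an intron of Hnf4, with a signal value of 98.5.

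Each replicate also had its own list of 30000 peaks, of which the 6485 best-ranked were used here, as many as the IDR list holds. In these, the 10 genes had 13, 15 and 14 summits in replicates 1, 2 and 3, a mean of 14 ± 1 (SD, n = 3). Hnf4, ERR, Hr38, Hr39, Hr83 and also Hr78 had such a summit in all 3 replicates, 6 of 10 genes against 33.4% of all protein-coding genes. That share was not split by span class, although longer genes were bound more often in the IDR list. In the IDR list, 6 of the 13 summits (46.2%, Wilson 95% interval 23.2 to 70.9) had a best-ranked summit within 100 bp in every replicate, against 55.2% of all IDR peaks. When replicate 1, 2 or 3 was set aside and a match in the remaining pair was required, 8, 6 and 7 of the 13 summits were kept. ERR was the bound gene that was lost in all 3 of these counts.

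**Figure D2:**
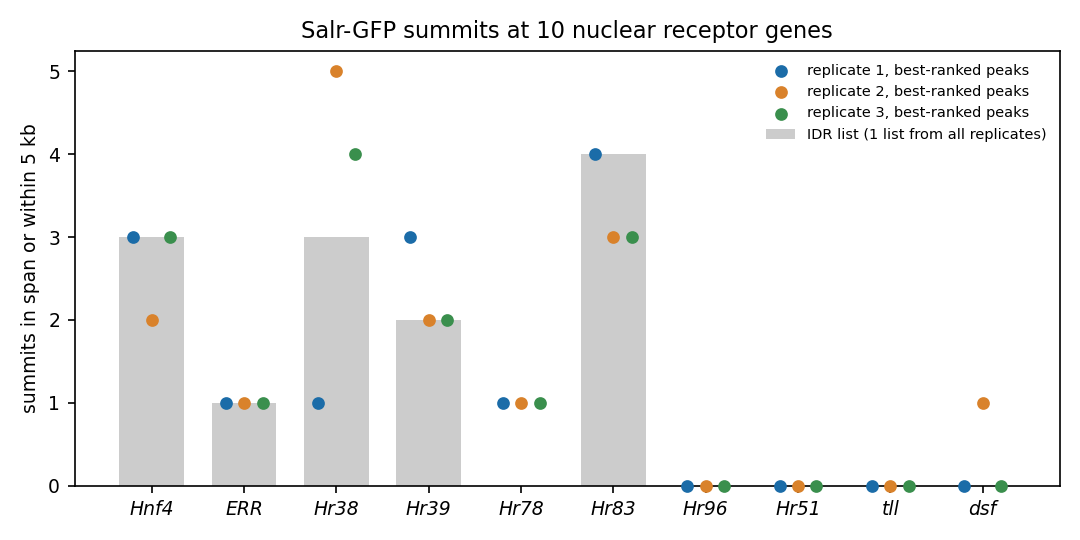
Number of summits in the span or within 5 kb of each gene (vertical axis) in the IDR list (grey bars) and among the best-ranked peaks of each replicate (coloured points). Hr78 has 1 summit in each replicate and none in the IDR list, and the points of Hr96, Hr51 and tll are all at 0.

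The sequences around the strongest summit of each gene show the DNA on which these results rest. Each runs 5′ to 3′ on the plus strand of Release 6 (dm6), 100 bp to each side of the summit at most, and was read from the RefSeq genome. Capitals mark ATATT on either strand, a core known from sites of the vertebrate Spalt protein SALL4. For Hr78 the stretch holds the summit of replicate 1 and ends before an annotated exon. The window beside Hr83 lies in the neighbouring gene Pak.
Hnf4, chr2L:8691391-8691591: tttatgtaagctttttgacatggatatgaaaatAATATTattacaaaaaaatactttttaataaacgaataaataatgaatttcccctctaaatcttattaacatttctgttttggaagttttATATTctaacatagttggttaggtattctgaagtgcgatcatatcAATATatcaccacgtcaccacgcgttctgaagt
ERR, chr3L:8185871-8186071: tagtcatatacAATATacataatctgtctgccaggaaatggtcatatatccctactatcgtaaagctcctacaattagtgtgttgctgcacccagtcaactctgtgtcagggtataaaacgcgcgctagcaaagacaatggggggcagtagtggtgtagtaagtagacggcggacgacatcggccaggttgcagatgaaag
Hr38, chr2L:20700642-20700842: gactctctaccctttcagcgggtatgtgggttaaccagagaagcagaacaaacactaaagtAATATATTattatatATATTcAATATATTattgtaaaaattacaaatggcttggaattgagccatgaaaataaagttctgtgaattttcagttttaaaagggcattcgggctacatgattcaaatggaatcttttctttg
Hr39, chr2L:21246768-21246968: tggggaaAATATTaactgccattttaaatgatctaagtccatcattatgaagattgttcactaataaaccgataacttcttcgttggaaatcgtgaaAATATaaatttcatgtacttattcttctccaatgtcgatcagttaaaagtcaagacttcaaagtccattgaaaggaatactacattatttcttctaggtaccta
Hr78, chr3L:21497039-21497142: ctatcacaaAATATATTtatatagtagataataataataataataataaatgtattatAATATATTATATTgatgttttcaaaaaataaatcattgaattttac
Hr83, chr3R:6353798-6353998: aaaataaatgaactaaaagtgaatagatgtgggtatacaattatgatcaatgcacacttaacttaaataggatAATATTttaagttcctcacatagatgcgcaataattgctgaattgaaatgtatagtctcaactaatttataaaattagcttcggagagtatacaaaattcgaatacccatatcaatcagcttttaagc

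Most of these windows were rich in A and T, as were the summits of the whole list. In the full 201 bp around the summit, the GC content was 27.4% at Hnf4 and 25.9% at Hr78, whereas it was 46.3% at ERR. Over the 13 windows of IDR summits, the median was 31.8% (range 27.4 to 59.2), against 34.3% over all IDR windows. The 6 summits found in all replicates lay between 27.4 and 34.3%. Of the other 7, 5 were above 45%, namely those at ERR, at rank 6374 near Hr38, at rank 5959 near Hr83 and at ranks 3870 and 4729 in Hnf4. The limit of 45% was not planned and lies just below the lowest of these 5 windows (45.3%, at rank 4729), so the split is no test. Over the whole list, 13.7% of the 2904 windows not found in all replicates exceeded 45%, against 6.17% of the 3581 that were. ATATT was present in 9 of the 13 windows (69.2%), against 70.5% of all IDR windows. The word GAGAG, read by GAGA factor, was in 5 (38.5%), against 23.2%. Matches of TTATGA, a site described for fly Spalt, were in 4 (30.8%), against 17.7%. The receptor core AGGTCA and the Zelda word CAGGTA were in none of the 13, against 3.69 and 3.27% of all IDR windows. The word AAGTCA, a core bound by Tailless-type receptors, was in 2 (15.4%, against 9.88%) and CACACA in 1 (7.69%, against 15.4%). Both strands were searched, matches may overlap, and with 13 windows each one counts for several percent.

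The receptors of metabolism came first. Hnf4 (FBgn0004914, 2L 8687226 to 8709611, minus strand) encodes a receptor known to promote fat breakdown and glucose control. Its strongest summit at 8691491 had a signal value of 703 and rank 226, and ranked 265, 239 and 201 in replicates 1, 2 and 3. The ranks of the replicates thus lay close together. The summit lay 282 bp upstream of the most downstream of the 5 annotated start sites of Hnf4. In the transcripts that start farther upstream it falls in an intron, the second of 7 and 14108 bp long in one annotated transcript. By its strongest promoter peak, Hnf4 took place 159 among the 1747 protein-coding genes with an IDR summit within 500 bp of a start site. A second summit at 8691693, 202 bp away, had rank 3870 and ranks 11822, 5193 and 8597 in the replicates. In the deposited list both entries carry the same interval, 8691484 to 8691696. The remaining summit, at 8702101 in the same intron and nearest to the start of the antisense RNA asRNA:CR44992, had rank 4729. The nearest replicate entries within 100 bp ranked 3826, 7630 and 11139. Replicate 3 also had a stronger, best-ranked summit 128 bp away, at 8701973 with rank 5871, beyond the 100 bp allowed for a match.

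ERR (FBgn0035849, 3L 8183361 to 8186671, minus strand) encodes the estrogen-related receptor, which is known to switch larval metabolism to sugar-burning growth. It had 1 IDR summit at 8185971, with a signal value of 154 and rank 4593, 301 bp upstream of the downstream one of its start sites. The replicates differed here. That summit ranked 2919 in replicate 1, 13354 in replicate 2 and 9197 in replicate 3. Replicates 2 and 3 instead had a stronger summit 943 and 910 bp away, at 8186914 and 8186881, with ranks 1625 and 2190. It lay 57 and 24 bp from the start of Atg18a, an autophagy gene, and 243 and 210 bp from the other start site of ERR. Replicate 1, the pooled list and the IDR list had no entry there. A best-ranked summit thus lay within 500 bp of a start site of ERR in every replicate, but it was not the same summit. In replicates 2 and 3 it was nearer to the start of Atg18a and cannot be assigned to ERR alone. In the IDR list, ERR took place 1418 of the 1747 promoter-bound genes.

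Hr96 (FBgn0015240, 3R 25025235 to 25029351), whose receptor is known for its part in sterol and fat balance and in the response to foreign chemicals, had no entry in its span or within 5 kb in any of the 5 dm6 lists. Of the genes known to respond to it, mag, a lipase gene, and Npc1b, a sterol transporter gene, had no IDR summit. Most genes had none, since 38.8% of all protein-coding genes had one, so these 2 genes say little.

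**Figure D3:**
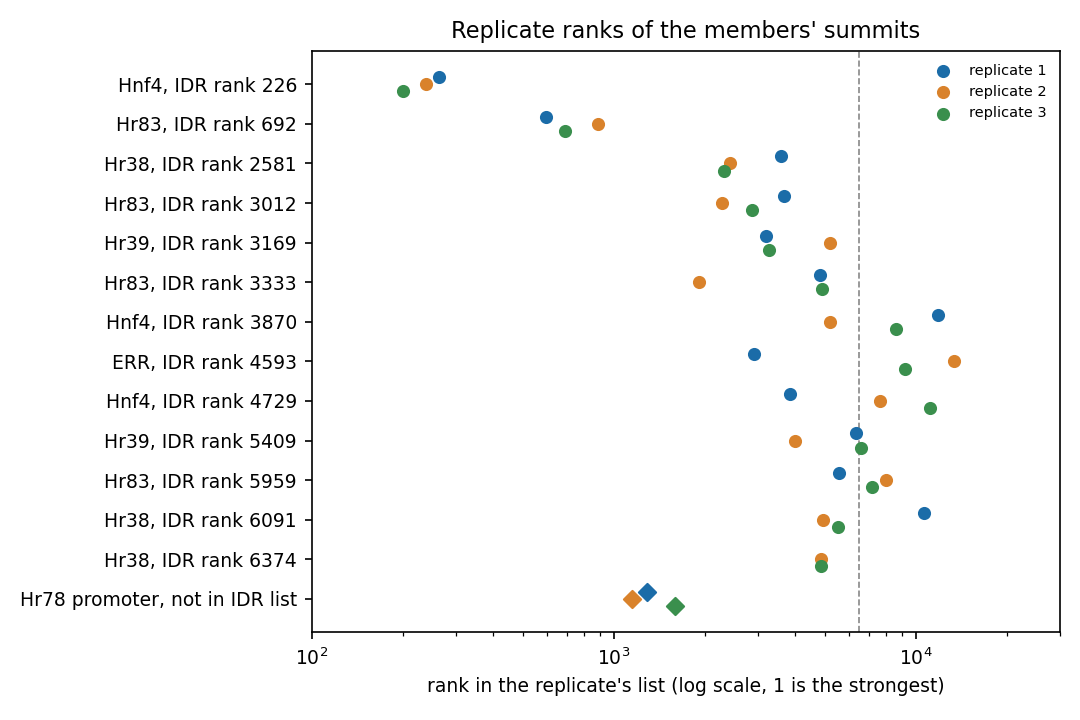
Rank of each IDR summit of the 10 genes in the 3 replicate lists (horizontal axis, log scale, 1 is the strongest), ordered by IDR rank, with the Hr78 promoter summit below (diamonds). The dashed line marks rank 6485. The Hnf4 summit at rank 226 and that at rank 692 beside Hr83 keep their place in every replicate, the ERR summit spreads from 2919 to 13354, and the Hr38 summit at rank 6374 has no point for replicate 1, whose summit lay 153 bp away, beyond the 100 bp match.

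The receptors tied to hormone signalling and metamorphosis had intronic, flanking or promoter summits. Hr38 (FBgn0014859, 2L 20683462 to 20714588, minus strand) encodes the fly member of the NR4A family, a partner of the ecdysone co-receptor Usp that is also induced in active neurons. Its strongest summit, at 20700742, lay in the first intron of the transcript that spans it (22580 bp long), 13846 bp downstream of the start site. It had a signal value of 226 and rank 2581, and ranked 3571, 2435 and 2316 in replicates 1, 2 and 3. A pair of weaker summits lay upstream of the gene, 1596 and 2342 bp from its start site, at ranks 6374 and 6091. Both were best-ranked in replicates 2 and 3 (4870 and 4861 for the nearer, 4918 and 5515 for the farther). In replicate 1 the farther ranked 10645. For the nearer, replicate 1 had its summit 153 bp away, at 20716337 with rank 6736, beyond the 100 bp match and just outside the best-ranked peaks. At the other end of Hr38, replicates 2 and 3 had a summit in the stretch where Cen and CG2617 start, at 20681929 (rank 1941) and 20682023 (rank 3145), which neither replicate 1 nor the IDR list held among its best-ranked peaks.

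Hr39 (FBgn0261239, 2L 21237250 to 21259675, plus strand), a relative of the SF-1 family of receptors with known roles in reproductive glands, had 1 summit in its second intron. It lay at 21246868, 9618 bp downstream of the start site, with a signal value of 199 and rank 3169. Its ranks of 3185, 5198 and 3271 in the replicates were all among the best-ranked peaks. The other summit, at 21264103, lay 4428 bp past the end of Hr39. It was 111 bp from the start of an unnamed noncoding RNA and 1147 bp from that of CG8671. Its rank was 5409, with ranks of 6325, 3980 and 6604 in the replicates. That is 2 replicates inside and 1 just outside the best-ranked peaks.

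Hr78 (FBgn0015239, 3L 21494019 to 21497494, minus strand), whose receptor is needed for growth and for the onset of metamorphosis, gave the clearest difference between the lists. It had no entry in the pooled list and so could have no IDR summit, since all IDR peaks are pooled entries. Each replicate, however, had a strong summit at its start sites, at 21497139 with a signal value of 156 in replicate 1, at 21497049 with 114 in replicate 2 and at 21497150 with 73.2 in replicate 3. These ranked 1287, 1152 and 1598 of 30000, and lay 44, 108 and 33 bp from the nearest of its 3 start sites. Each rank was ahead of all replicate ranks of the summits of Hr38, Hr39 and ERR described above for the IDR list. The nearest pooled entries lay 17.2 kb and 19.0 kb away. In the same 36.2 kb without a pooled entry lay another promoter summit shared by all 3 replicates. It was at 21509650 in replicate 1, nearest to the start of M6, with ranks 2605, 2915 and 2717. With Hr78, 3 of the 10 genes (Hnf4, ERR and Hr78) had a best-ranked summit within 500 bp of a start site in all 3 replicates, against 9.65% of all protein-coding genes. In replicates 2 and 3, ERR counts here through the summit that is nearer to Atg18a. In the IDR list it was 2 of 10 (Hnf4 and ERR), against 12.5%, and the classes of span add up to 1.88. No such sum over classes of span was taken for the replicate lists.

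**Figure D4:**
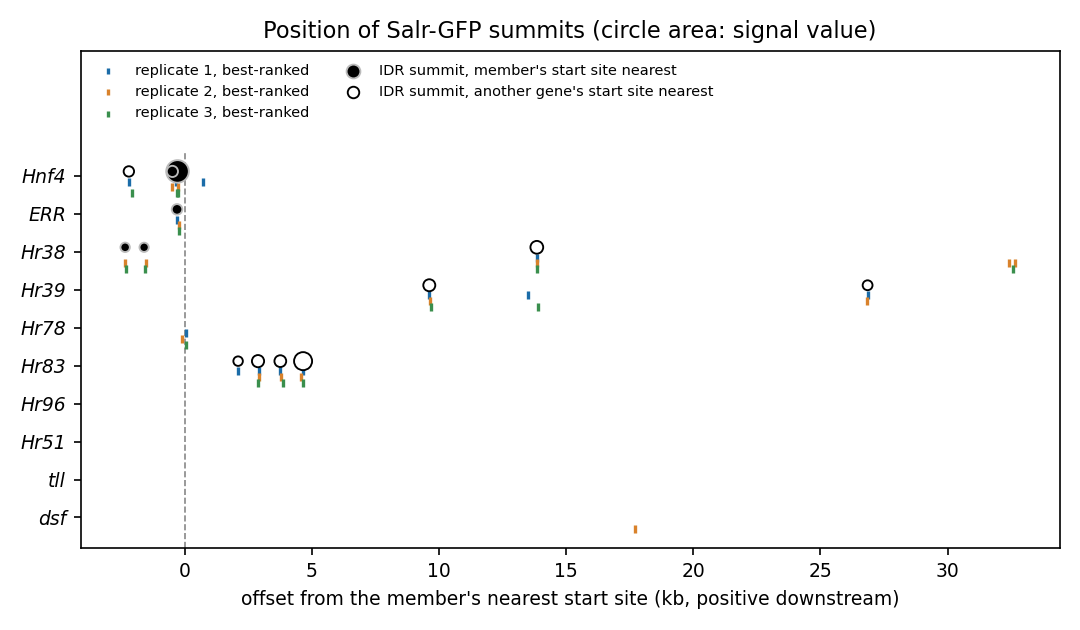
Offset of each summit from the nearest start site of its gene in kb (horizontal axis, positive is downstream on the gene's strand). Circles are IDR summits with an area that follows the signal value, filled where the gene's own start site is the nearest of all annotated genes and open where that of another gene or noncoding RNA is nearer, and ticks are best-ranked summits of each replicate. Hnf4, ERR and Hr78 carry ticks of all 3 replicates at their start sites, and all circles of Hr83 are open.

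Beside Hr83 (FBgn0037436, 3R 6349243 to 6350512, plus strand), a gene of 1270 bp, lay 4 IDR summits, 3.55 per 10 kb of its window and the highest density of the 10 genes. None was in its span, and all were nearest to a start site of Pak, the gene of a p21-activated kinase that begins downstream of Hr83. The strongest, at 6353898, was 3386 bp past the end of Hr83 and 190 bp from a start site of Pak. It had a signal value of 450 and rank 692, and ranked 599, 885 and 692 in the replicates. The others ranked 3012, 3333 and 5959 and were 783 to 895 bp apart from their neighbours, and the first and second of them were best-ranked in all replicates. All 4 lay inside the Pak gene and counted for Hr83 through the 5 kb flank.

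The receptor genes known from the embryo and the nervous system had no IDR summit and few entries in any list. The gene tll (FBgn0003720, 3R 30852315 to 30854400), which encodes the Tailless repressor of the terminal body regions and the optic lobe, had no entry in any of the 5 lists. Around dsf (FBgn0015381, 2L 5925937 to 5939261), a gene of sexual behaviour and of the Tailless group, the pooled list had none. Replicates 1 and 2 had a summit 10 and 2 bp from the start of Gpdh1, a glycerol phosphate dehydrogenase gene downstream of dsf, with ranks 6915 and 4228. Replicate 3 held only an entry of rank 26793, 944 bp upstream of dsf. Of the embryonic gap genes that act with tll, Kr, gt and hkb had no IDR summit, and hb had 1, at a start site, with a signal value of 307. That is 1 of 4 genes, against 38.8% of all protein-coding genes.

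Hr51 (FBgn0034012, 2R 15331325 to 15339384), also called unfulfilled and known for its part in neurons of the mushroom body, had no IDR summit. The pooled list held a summit at 15339649, 823 bp from the start of unc-5, a netrin receptor gene, with rank 8331. It ranked 11354, 6486 and 14476 in the replicates. That rank in replicate 2 is the first one beyond the best-ranked peaks. Inside the Hr51 span, the 5 lists held 1 entry in all, in replicate 2 at rank 28539.

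By class, 7 of the 13 IDR summits (53.8%, Wilson 95% interval 29.1 to 76.8) lay within 500 bp of a start site of some gene, against 29.9% of all IDR summits. The best-ranked peaks of the replicates at these genes gave 56.8% ± 8.73 (SD, n = 3). The same share over all best-ranked peaks was not computed, so this value has no background beside it. Of these 7, 3 were at the start sites of Hnf4 and ERR themselves. The other 4 lay at those of Pak and of the noncoding RNA near the start of CG8671. The other summits lay in introns (4) or intergenic sequence (2), and none of them was in an annotated exon. Summits within 500 bp of a start site were not classed further, so some of them may lie in exons. The start site of the receptor gene itself was the nearest of all annotated start sites for 5 of the 13 summits, at Hr38, ERR and Hnf4, and for 8 when noncoding RNAs were left aside.

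The remaining 11 nuclear receptor genes of the fly carried more summits. They are those of the ecdysone receptor and its core cascade and of the knirps and seven-up groups. Of these, 10 (90.9%) had an IDR summit, 75 in all and 1.30 per 10 kb, with 17 at Hr4, 15 at Eip75B and 10 at Hr3. Their median span was 39895 bp, against 6088.5 bp for the 10 genes described, and the difference was not tested. At start sites the sets were closer, with 3 of 11 (27.3%), at Eip75B, eg and usp, against 2 of 10. The exception without a summit was kni. All 3 genes of receptor cofactors had summits, 11 at tai, 8 at Smr and 8 at Gug (also called Atro), with a promoter summit at Gug of signal value 587. Their spans of 83434, 58416 and 22748 bp put all 3 in the longest class of genes, of which 61.2% were bound.

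Enzyme genes of glycolysis and the pentose phosphate pathway, known as targets of ERR in larvae, had an IDR summit in 8 of 14 cases (57.1%) and at a start site in 5 (35.7%), beside 38.8 and 12.5% of all genes. The promoter summits were at Gapdh2 (signal value 922), Ldh (707), Hex-A (591), Eno (537) and Pgk (284). Ald1, Gapdh1, Pfk, Pgi, Pglym78 and Tpi had none in their windows. The strongest promoter summit of ERR itself, at 154, was below all 5. The tagged gene salr had 3 IDR summits, 1 of them at a start site with a signal value of 493, and its paralogue salm had 4, none at a start site.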

How the data were processed

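ChIP-seq peak lists from 3 biological replicates of 1 group were used. Chromatin was sheared by sonication to 200 to 800 bp, per the labels. The deposited notes trace the replicate and pooled lists to alignments with 1 control alignment in common, and the dm6 IDR list to those 4 lists. Neither aligner nor peak caller is given in the sources used here. The signal value, as deposited, is a score of unstated scale. Peaks were ranked by it inside each list. The names of the replicate and pooled lists state that they hold background as well as peaks, so low ranks need not be binding sites. Read totals were not used, the depth is unknown, and Wilson 95% intervals cover counting error only.

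Summits are the peak start plus the deposited offset, written 1-based, and all lay inside the arms of Release 6. Genes, start sites and classes come from Ensembl release 115 (BDGP 6.54), which has dm6 coordinates, without transposable elements. A summit within 500 bp of any start site was classed as promoter, and otherwise by the exon, intron or intergenic sequence at its position. The dm3 lists were not analysed here. Counting was checked on simulated summits, and done in Python 3.11.15 with pandas 2.3.3, NumPy 2.4.6 and SciPy 1.17.1. The 10 genes and the further lists were chosen with earlier results of these data known. All 10 were named, with up to 6 summits each, and genes whose start sites were nearer were named beside them. Of the further symbols, Atro and Pyk were matched as Gug and PyK. The alternatives were stricter parts of the IDR list, other flanks, promoter widths and match distances, the nearest start site alone, and leaving out each replicate.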

Additional observations from a re-analysis of the deposited data

How the results depend on the processing

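The 5 genes with an IDR summit became 4 in the 3242 best-ranked IDR peaks, in the spans alone and without any 1 replicate, 6 with a flank of 10 kb, where tll gained 1 summit, and 6 with the replicate lists in place of the IDR list, an alternative chosen after seeing the data. They were 2 among the 1000 strongest peaks and 3 when the gene's own start site had to be nearest. The 13 summits became 5 in the 3242 best-ranked peaks, 2 among the 1000 strongest, 6 in the spans alone, 5 with the nearest start site and 6 to 8 without single replicates. These sets hold fewer peaks or a shorter search space by construction. Genes with a promoter summit numbered 2, 1 in the 3242 and in the 1000 strongest peaks, 1 without each replicate, 0 within 250 bp and 3 with the replicate lists. The share of summits found in all replicates, 46.2%, was 15.4% within 50 bp, 92.3% against all 30000 peaks of each replicate, 20% for summits nearest to the gene's own start site, and 100% in the 3242 and the 1000 strongest peaks. In the remaining replicates it was 46.2 to 61.5%. The share at promoters, 53.8%, was 23.1% within 250 bp, 100% for the 2 summits among the 1000 strongest, and 37.5 to 57.1% without single replicates. For the 5 genes with an IDR summit, 27 of 40 recounts of single genes moved by over 1.5 times. For the 5 without one, 39 of 40 recounts stayed at 0, but most of these could not do otherwise. Only the 10 kb flank could raise a 0, and there tll gained its summit. The other recounts only take summits away, so a 0 in them was fixed in advance. The replicate lists, in which Hr78 had summits, were not among these recounts. Depth is unknown, so a gene without a summit is not shown to be free of binding.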

Other observations

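Hr78 was not alone in being strong in every replicate and missing from the pooled list. Of 3553 best-ranked summits of replicate 1 that both other replicates shared within 100 bp, 21 (0.591%) had no pooled entry within 500 bp. At promoters lay 20 of these 21, against 32.8% of the 3532 with a pooled entry. The exception was an intronic summit nearest to Arp2, an actin-related protein gene. Among sites ranked 1600 or better in all replicates, 6 of 1043 had no pooled entry. These were nearest to CG8202, SMC6, E(z), CG13384, Pex6 and Hr78. The limit of 1600 lies just past the rank of 1598 that Hr78 had in replicate 3, so the place of Hr78 among them was fixed in advance. E(z) encodes the methyltransferase of Polycomb repressive complex, SMC6 a chromosome maintenance protein and Pex6 a peroxisome factor. The strongest, at CG8202, ranked 625, 358 and 595 in replicates 1, 2 and 3.

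Sites like those at Atg18a beside ERR and at Cen beside Hr38, shared by replicates 2 and 3, were more frequent. Of 4323 best-ranked summits of replicate 2 shared with replicate 3, 136 had no pooled entry within 500 bp, and 106 of these had none in replicate 1 either. By gene, 46 of the 1346 protein-coding genes with a best-ranked promoter summit in all replicates (3.42%) had no promoter summit in the IDR list. The cause was not tested.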
